A study of Homo sapiens with 9 samples.

Results

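The genes followed across the series build chondroitin sulfate. They are CHPF, CHPF2, CHSY1, CHSY3, CSGALNACT1, CSGALNACT2, XYLT1, XYLT2, B4GALT7 and CHST11, 10 of the 58735 genes of the count table. They were chosen by their known enzyme function, except that CHPF was singled out because it stood higher in cells depleted of CDO1 than in control cells. The differences of CHPF from the control are therefore described here without a test, whereas the other 9 genes are tested against the control and all 10 can be tested between the 2 siRNAs directed against CDO1.

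Chondroitin sulfate is a sugar chain carried by proteoglycans of the cell surface and matrix. It is built in the Golgi on a linker of sugars that begins with a xylose attached to a serine of the core protein, and the same linker also carries heparan sulfate, so that the enzyme adding the next sugar sets which chain is made. The chondroitin chain is then lengthened by partner proteins that alternate glucuronic acid and N-acetylgalactosamine, and it is decorated with sulfate groups. CHPF, the chondroitin polymerizing factor, works together with the chondroitin synthases in this lengthening.

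The RNA came from VCaP cells, an androgen-sensitive prostate cancer cell line grown in medium with 10% fetal bovine serum and 2 nM DHT, an androgen, in all groups. The cells were transfected with a control siRNA (siCtrl, genotype WT per the labels) or with the siRNA siCDO1A or siCDO1C (CDO1 knockdown), and poly(A) RNA was sequenced in 3 biological replicates per group, 9 libraries in all. The labels give the libraries of each group the batch numbers 1 to 3, equal to their replicate numbers. CDO1 encodes cysteine dioxygenase, and the comparisons ask which genes differ once its transcript is reduced.

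Total counts ranged from 12061295 to 16073698 per library. CDO1 itself was reduced by 82.1% ± 4.78 (SD, n = 3) with siCDO1A and by 87.9% ± 6.94 (SD, n = 3) with siCDO1C, with no overlap between groups (two-sided exact permutation test, p = 0.1 each, the smallest that 3 against 3 libraries allow). The cells carried luminal prostate markers, whose 8 genes summed to between 5736 and 7025 CPM (counts scaled to a common library total) in every library, whereas the sums were at most 3.42 CPM for 3 basal, 2.69 CPM for 3 endothelial and 0.410 CPM for 3 leukocyte markers and 13.9 to 22.8 CPM for 4 fibroblast markers. Most of the fibroblast sum was LUM, at 11.2 to 18.6 CPM. COL1A1 was at 1.63 to 4.65 CPM, DCN at most at 0.187 CPM, and COL1A2 had no counts. In a bulk culture, fewer cells expressing a gene and less RNA per cell cannot be told apart. Libraries that differ in depth are compared by CPM, scaled by the TMM method, for a gene across libraries, and by RPKM, which also divides by gene length, for levels between genes.

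CHPF stood out among the genes of the chain. In the siCtrl libraries it was at 40.5, 43.1 and 43.1 CPM. With siCDO1A it was at 124, 118 and 107 CPM, and with siCDO1C at 114, 116 and 100.0 CPM. All 6 libraries with a CDO1 siRNA lay above all 3 siCtrl libraries, with a wide gap between them. The means were 42.2 ± 1.51, 116 ± 8.93 and 110 ± 8.60 CPM (SD, n = 3 each), that is 2.76 times the siCtrl mean with siCDO1A and 2.60 times with siCDO1C. Within batches 1, 2 and 3 the ratio was 3.07, 2.75 and 2.48 with siCDO1A, and 2.81, 2.69 and 2.32 with siCDO1C. The fitted log2 fold changes were 1.46 (SE 0.07) and 1.37 (SE 0.08), and these comparisons share the siCtrl libraries. Between the 2 siRNAs, which uses no siCtrl library, CHPF did not pass the test (siCDO1C against siCDO1A, log2 fold change -0.09, SE 0.09, edgeR quasi-likelihood test with Benjamini-Hochberg adjustment over all genes, adjusted p = 0.943).

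**Figure D1:**
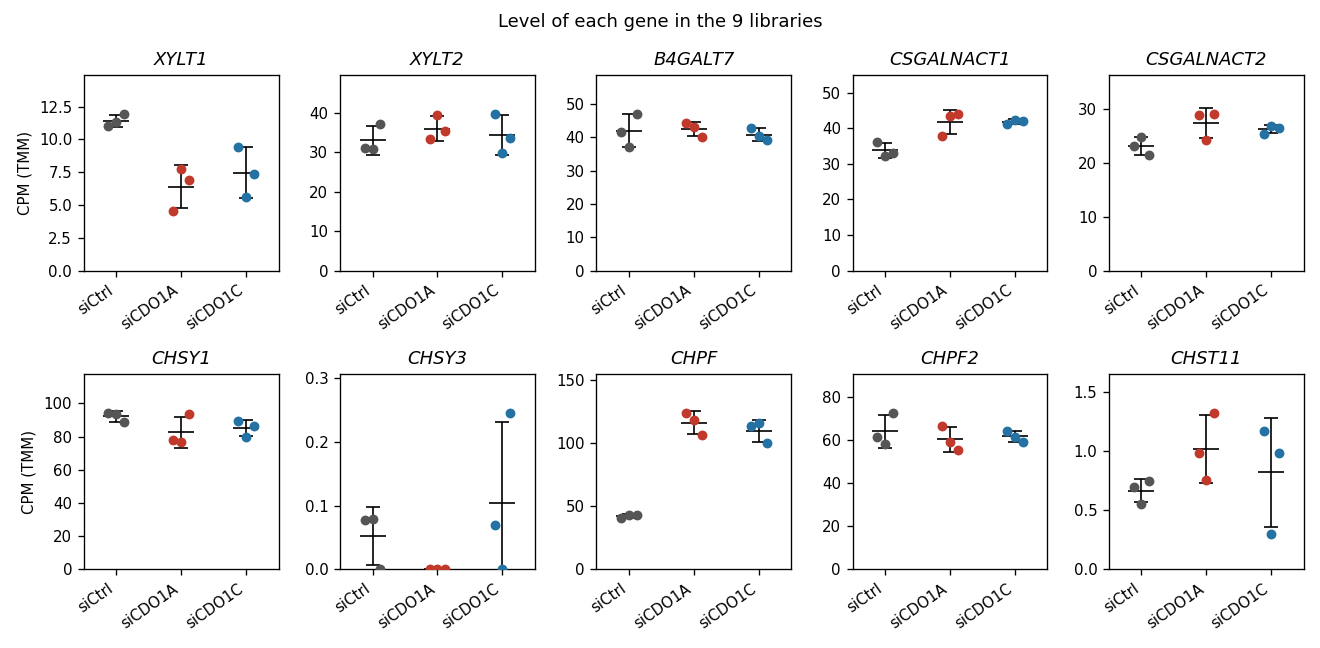
Level of each of the 10 genes in CPM (vertical axes, linear and starting at 0) in the siCtrl, siCDO1A and siCDO1C libraries; each point is a library and the black marks are the mean ± SD of 3 libraries. CHPF lies between 40.5 and 43.1 CPM in siCtrl and between 100.0 and 124 CPM with the siRNAs against CDO1, and XYLT1 lies lower with both siRNAs than in siCtrl.

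CHPF (ENSG00000123989) lies on the minus strand of chromosome 2, from 219538947 to 219543787 in GRCh38. Its start overlaps that of TMEM198, a membrane protein gene, on the plus strand (219543663 to 219550595). The paper describes libraries that keep the strand of the RNA. Reads in the shared stretch could be split between the 2 genes only if the counting used strand, which is not stated. TMEM198 had 39.0 ± 3.88, 40.9 ± 4.66 and 37.1 ± 3.64 CPM (SD, n = 3) with siCtrl, siCDO1A and siCDO1C, and it passed the test in neither comparison with siCtrl (log2 fold changes 0.06 and -0.08, adjusted p = 0.724 and 0.714 by edgeR). Of the other genes within 20 kb, OBSL1, a cytoskeletal adaptor gene 6942 bases away, passed with siCDO1A (log2 fold change 0.23, adjusted p = 0.0374) and not with siCDO1C (-0.01, adjusted p = 0.965). The OBSL1 call was lost with the batch number as a block (adjusted p = 0.109), with the trends of the counts with GC content and gene length removed by an offset in the fit (log2 fold change 0.10, adjusted p = 0.129), and without siCtrl replicate 1 or 2 or siCDO1A replicate 1 or 2 (adjusted p up to 0.234). ASIC4, AC009955.3, MIR3132 and AC009955.4 had 0 to 5 counts in each library and were not tested.

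An earlier reading of these data had noticed the letters GCAGTACA in the 3′UTR of CHPF, so the stretch is shown here for what the transcript holds. In the GENCODE v44 annotation lifted to GRCh37, the longest 3′UTR of CHPF has 429 bases, and the 8 letters, in capitals, take positions 268 to 275 counted from its first base, on the transcript strand:
CHPF: acgtatttatGCAGTACAgtctgcctga
The other 9 genes, with longest 3′UTRs of 635 to 6926 bases, do not hold these letters. They are present in 277 of the 12974 tested genes with an annotated 3′UTR (2.14%), and in 346 of all 19303 (1.79%). A match in letters is a description of the sequence and says nothing of what acts on it.

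None of the other polymerization genes with enough counts, CHPF2 and CHSY1, was called against siCtrl by edgeR, and before adjustment only CHSY1 with siCDO1A was under 0.05. CHPF2, a close relative of CHPF with the same role, was at 61.3, 58.1 and 72.5 CPM in siCtrl, at 66.4, 58.9 and 55.3 CPM with siCDO1A and at 64.2, 61.5 and 59.2 CPM with siCDO1C. The groups overlapped throughout, and the log2 fold changes were -0.09 (SE 0.09, adjusted p = 0.520) and -0.06 (SE 0.09, adjusted p = 0.769), the first of which passed with GC and length trends removed (-0.18, adjusted p = 0.0343, or 0.0401 with the block). CHSY1, the chondroitin synthase that carries out the lengthening, was at 94.4, 93.7 and 88.7 CPM in siCtrl, at 77.9, 76.6 and 93.6 CPM with siCDO1A and at 89.4, 80.0 and 86.3 CPM with siCDO1C. Replicate 3 of siCDO1A reached the siCtrl range and the other siCDO1A libraries lay below it, with log2 fold changes of -0.16 (SE 0.07, adjusted p = 0.167) and -0.12 (SE 0.08, adjusted p = 0.429). Without siCDO1A replicate 3, CHSY1 was called lower with siCDO1A (log2 fold change -0.25, edgeR adjusted p = 0.00238). CHSY3, a further synthase, had 0 to 3 counts per library, with 0 in all 3 siCDO1A libraries, where 3 counts would be 0.198 to 0.245 CPM. It was not tested, and no difference was detectable at this depth.

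Set against its partners, CHPF stood lower than CHSY1 and CHPF2 in siCtrl and higher than both with either CDO1 siRNA. In siCtrl the RPKM level was 16.6 ± 0.565 for CHSY1, 15.2 ± 1.80 for CHPF2 and 12.6 ± 0.451 for CHPF (SD, n = 3), where the ranges of CHSY1 and CHPF2 overlapped and that of CHPF lay below both. The gap was narrow, with CHPF at most at 12.9 RPKM and CHPF2 at least at 13.8 RPKM. RPKM does not adjust for GC content, which was 66.2% for CHPF, 59.4% for CHPF2 and 48.2% for CHSY1. With siCDO1A and siCDO1C, CHPF was at 34.7 ± 2.66 and 32.8 ± 2.56 RPKM, above every other gene of the 10. As a share of the summed RPKM of the 4 polymerization genes, CHPF made up 27.6%, 29.5% and 27.9% in the siCtrl libraries. It made up 55.4%, 55.9% and 51.5% with siCDO1A and 52.0%, 54.3% and 50.1% with siCDO1C. The shares of the siRNA libraries lay all above those of siCtrl. The RPKM ratio of CHPF to CHPF2 was 0.834 ± 0.0928 in siCtrl, 2.43 ± 0.0864 with siCDO1A and 2.24 ± 0.121 with siCDO1C, and that of CHPF to CHSY1 was 0.759 ± 0.0474, 2.36 ± 0.413 and 2.14 ± 0.239. The summed RPKM of the 4 genes was 44.4 ± 1.41, 63.9 ± 2.62 and 62.8 ± 3.00. These quantities contain CHPF and are described without a test.

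**Figure D2:**
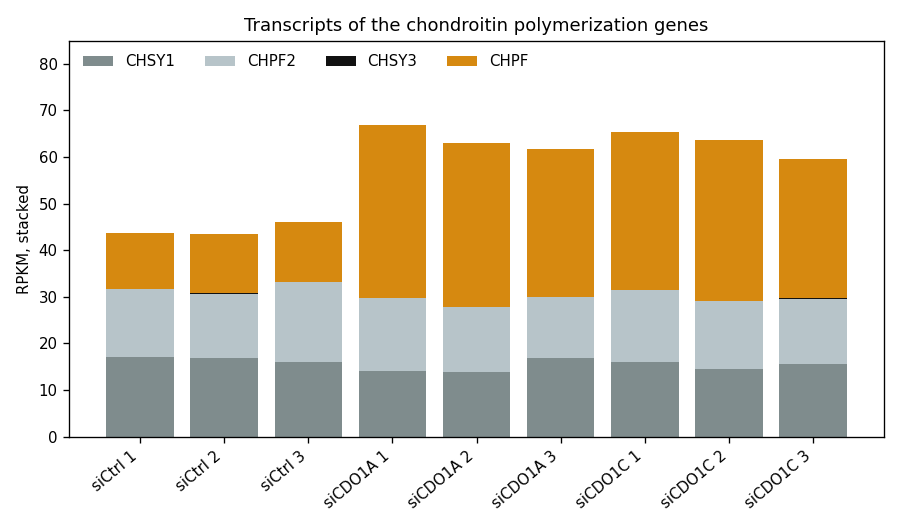
RPKM of CHSY1, CHPF2, CHSY3 and CHPF stacked for each of the 9 libraries (vertical axis, linear from 0), so that the height of a bar is their sum; CHSY3 is too low to be seen in most bars. CHPF takes 27.6% to 29.5% of the bar in siCtrl and 50.1% to 55.9% with the siRNAs against CDO1, while CHSY1 fills 13.8 to 17.0 RPKM and CHPF2 13.2 to 17.2 RPKM over the 9 bars.

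Of the 2 enzymes that start the chondroitin chain by adding its first N-acetylgalactosamine, CSGALNACT1 was called with siCDO1A and CSGALNACT2 with neither siRNA. The fitted log2 fold changes of both were positive with both siRNAs, and a difference between the 2 genes was not tested. CSGALNACT1 was at 36.2, 32.2 and 33.0 CPM in siCtrl, at 37.9, 43.5 and 44 CPM with siCDO1A and at 41.1, 42.4 and 42.1 CPM with siCDO1C. The lowest siRNA library was thus above the highest of siCtrl. CSGALNACT1 rose with siCDO1A (log2 fold change 0.31, SE 0.08, edgeR adjusted p = 0.0166), but this call was lost with the batch number as a block (0.31, adjusted p = 0.0628) and without siCtrl replicate 2, siCtrl replicate 3 or siCDO1A replicate 2 (adjusted p up to 0.0922). With siCDO1C its log2 fold change was 0.30 (SE 0.09) and did not pass (adjusted p = 0.0607), but it did without siCDO1C replicate 2 (0.29, adjusted p = 0.0182), in the fit of all 9 libraries (0.31, adjusted p = 0.0412) and with GC and length trends removed (0.33, adjusted p = 0.0146, or 0.0233 with the block). Within batches 1, 2 and 3 its ratio to siCtrl was 1.05, 1.35 and 1.34 with siCDO1A and 1.13, 1.32 and 1.28 with siCDO1C. CSGALNACT2 was at 23.2, 24.7 and 21.5 CPM in siCtrl, at 28.8, 24.2 and 29.0 CPM with siCDO1A and at 25.4, 26.9 and 26.5 CPM with siCDO1C. Only the siCDO1C libraries lay wholly above siCtrl, and neither log2 fold change passed (0.24, SE 0.10, adjusted p = 0.101 and 0.18, SE 0.10, adjusted p = 0.368), although that with siCDO1A did with GC and length trends removed (0.28, adjusted p = 0.0152, or 0.0169 with the block).

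XYLT1, a xylosyltransferase that opens the linker by placing xylose on the core protein, was lower. It was at 11, 11.3 and 11.9 CPM in siCtrl, at 4.57, 7.72 and 6.88 CPM with siCDO1A and at 9.46, 5.60 and 7.37 CPM with siCDO1C. No siRNA library reached the siCtrl range, and the spread among siRNA libraries was wider than among siCtrl libraries (11.4 ± 0.461 against 6.39 ± 1.63 and 7.48 ± 1.93 CPM, SD, n = 3). XYLT1 fell by 0.83 on the log2 scale with siCDO1A (SE 0.16, edgeR adjusted p = 0.00108), a call kept under all 14 alternatives. It fell by 0.62 with siCDO1C (SE 0.17, adjusted p = 0.0470), a call lost without any of siCtrl replicates 1, 2 and 3 or siCDO1C replicate 3 (adjusted p up to 0.186). Within batches 1, 2 and 3, XYLT1 was at 0.414, 0.682 and 0.576 of the siCtrl level with siCDO1A and at 0.857, 0.495 and 0.618 with siCDO1C.

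The other linker enzymes did not pass the test. XYLT2, the other xylosyltransferase, was at 31.0, 30.8 and 37.2 CPM in siCtrl, at 33.4, 39.4 and 35.3 CPM with siCDO1A and at 39.7, 29.8 and 33.6 CPM with siCDO1C, all overlapping (log2 fold changes 0.12 and 0.05, adjusted p = 0.423 and 0.874). B4GALT7, which adds the galactose next to the xylose, was at 41.7, 37.2 and 47.0 CPM in siCtrl, at 44.2, 43.0 and 40.2 CPM with siCDO1A and at 42.9, 40.3 and 39.2 CPM with siCDO1C (log2 fold changes 0.01 and -0.05, adjusted p = 0.955 and 0.831). In siCtrl, XYLT2 stood at 6.03 RPKM and XYLT1 at 1.04 RPKM, so that the xylosyltransferase that fell was the less abundant transcript of the pair. CHST11, a sulfotransferase acting on position 4 of the N-acetylgalactosamine, had only 4 to 20 counts per library, with 0.667 ± 0.0998 CPM in siCtrl, 1.02 ± 0.288 with siCDO1A and 0.820 ± 0.458 with siCDO1C, and its log2 fold changes of 0.60 (SE 0.40) and 0.28 (SE 0.48) did not pass (adjusted p = 0.362 and 0.816).

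**Figure D3:**
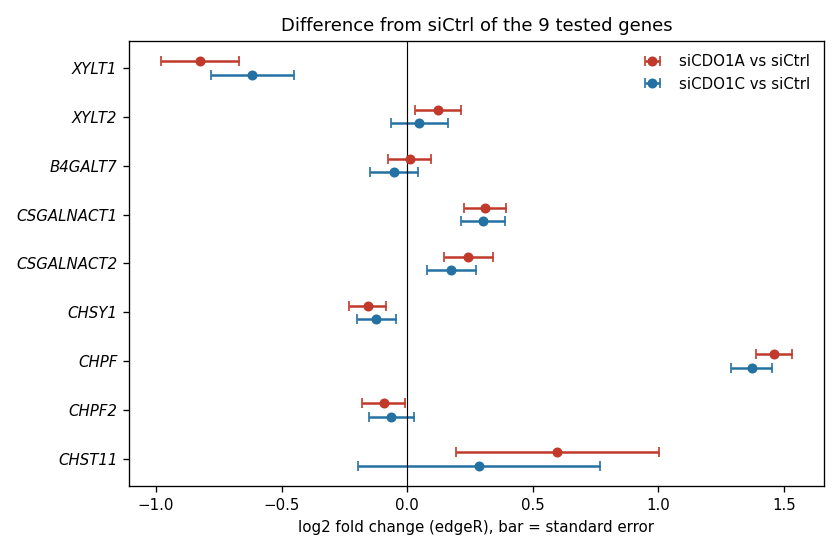
Fitted log2 fold change against siCtrl (horizontal axis) of the 9 genes with enough counts to test, with siCDO1A in red and siCDO1C in blue; bars are standard errors of the edgeR fit. CHPF lies at 1.46 and 1.37, XYLT1 at -0.83 and -0.62, and the remaining genes between -0.16 and 0.60.

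Of the 8 tested genes other than CHPF, 2 were called with siCDO1A (25%), CSGALNACT1 upward and XYLT1 downward, where 14.8% of all 15555 tested genes were called. With siCDO1C 1 was called (12.5%), XYLT1, against 4.77% of all tested genes. With so few genes, these shares are no result about the group, and leaving out a library gave 1 (without siCtrl replicate 2 or 3 or siCDO1A replicate 2) to 3 calls (without siCDO1A replicate 3) with siCDO1A, and 0 (without any siCtrl replicate or siCDO1C replicate 3) to 2 (without siCDO1C replicate 2) with siCDO1C. For siCDO1A the 8 genes had a median log2 fold change of 0.07, beside 0.01 over all tested genes, and for siCDO1C both medians were within 0.01 of 0. The libraries did not overlap between siRNA and siCtrl for 3 of these 8 with siCDO1A (CSGALNACT1, XYLT1 and CHST11) and for 3 with siCDO1C (CSGALNACT1, CSGALNACT2 and XYLT1), beside 30.6% and 24.2% of all tested genes. For CHST11 this rested on 0.752 CPM (11 counts, siCDO1A replicate 2) against 0.746 CPM (12 counts, siCtrl replicate 3). Between siCDO1C and siCDO1A none of the 9 tested genes, CHPF included, was called by edgeR, none had an unadjusted p under 0.05 and none had libraries that did not overlap, where 0.444% of all tested genes were called and 12.6% did not overlap.

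Ordered by RPKM in siCtrl, the 10 genes ran from CHSY1 (16.6) and CHPF2 (15.2) through CHPF (12.6), B4GALT7 (8.52), CSGALNACT2 (6.20), XYLT2 (6.03), CSGALNACT1 (5.13) and XYLT1 (1.04) to CHST11 (0.103) and CHSY3 (0.0133). CHSY1 and CHPF2, and likewise CSGALNACT2 and XYLT2, were not told apart because their library ranges overlapped, and the other neighbours in this order did not overlap.

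Among the genes whose pattern over the 9 libraries was most like that of CHPF were YWHAH, ELN, HIPK3 and EMP2. Likeness was the root mean square difference of log2 CPM centred on each gene's own mean, over 11331 genes of at least 5 CPM, and it was 0.186, 0.203, 0.226 and 0.228 for these genes, against a median of 0.679 over those genes. YWHAH, a 14-3-3 adaptor protein, was at 2.06 and 2.20 times the siCtrl mean CPM with siCDO1A and siCDO1C, and ELN, which encodes elastin, at 2.44 and 2.11 times. HIPK3, a protein kinase, was at 2.71 and 2.72 times, and EMP2, a membrane protein, at 2.06 and 1.98 times. These genes were picked for this pattern and are not tested. The letters shown for CHPF were found in the 3′UTRs of YWHAH (1 copy), HIPK3 (1) and EMP2 (2), with longest 3′UTRs of 1448, 3455 and 4483 bases, and not in that of ELN (1207 bases). They are present in 2.14% of tested genes with an annotated 3′UTR, a share not matched for 3′UTR length. The letters and these genes were both picked from these data, so the matches are described only, and a cause was not tested. Among its own pathway partners, the closest to CHPF by this measure were CSGALNACT1, at rank 620, and CSGALNACT2, at rank 1267, whereas XYLT1 was at rank 11301.

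**Figure D4:**
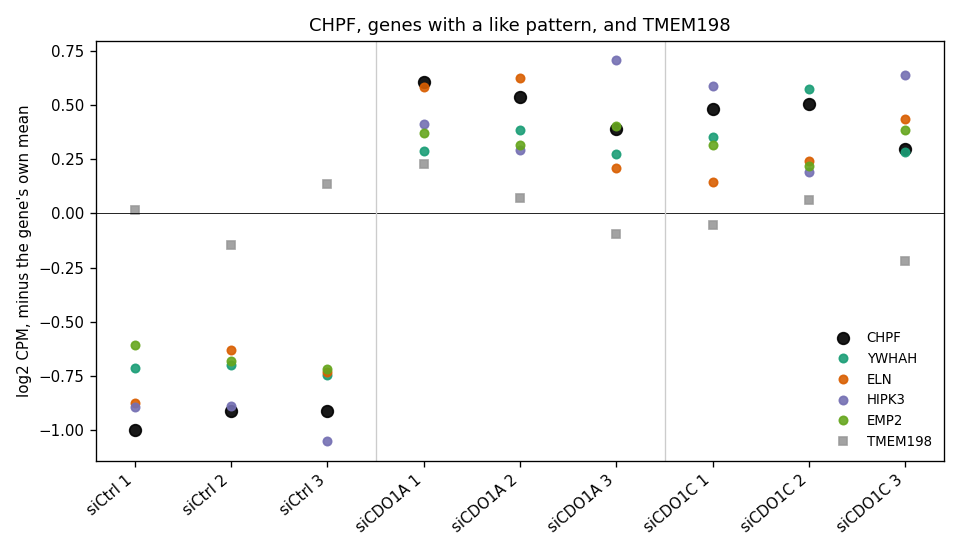
Log2 CPM minus the gene's own mean over the 9 libraries (vertical axis) for CHPF (large black points), YWHAH, ELN, HIPK3 and EMP2, chosen for their likeness to it, and TMEM198 (grey squares), whose start overlaps CHPF. CHPF and these genes lie below 0 in the 3 siCtrl libraries and above 0 in the 6 others, and TMEM198 lies on both sides of 0 within each group.

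The rest of glycosaminoglycan metabolism was read from 7 lists holding 99 genes, of which 75 had enough counts. With siCDO1A 18 of them were called (24%), 5 higher and 13 lower, beside 7.37% of all tested genes called higher and 7.48% called lower. With siCDO1C 9 were called (12%), 5 higher and 4 lower, beside 2.27% and 2.5%. In both comparisons, which share the siCtrl libraries, 6 genes were called, that is 8.0% of the 75 beside 3.63% of all tested genes. PXYLP1, HS6ST1 and CSPG5 rose, and PAPSS2, BPNT2 and SDC4 fell. Leaving out a library changed these counts to 12 (without siCDO1A replicate 1) to 28 (without siCDO1A replicate 3) with siCDO1A, and with siCDO1C to 15 without siCDO1C replicate 2, 3 without siCDO1C replicate 1 or 3, 1 without siCtrl replicate 1 or 2, and 0 without siCtrl replicate 3. Over the 75 genes the median log2 fold changes were -0.01 (siCDO1A) and -0.04 (siCDO1C).

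Of the 4 other linker genes, 2 were called with siCDO1A by edgeR (50%, beside 14.8% of all tested genes). With siCDO1C 1 was called (25%, beside 4.77%). The gene that rose with both siRNAs was PXYLP1. PXYLP1, the phosphatase that removes the phosphate from the linker xylose, was at 16.2, 16.8 and 12.8 CPM in siCtrl, at 27.4, 22.8 and 23.0 CPM with siCDO1A and at 23.7, 27.6 and 20.5 CPM with siCDO1C. All siRNA libraries lay above siCtrl, with log2 fold changes of 0.68 (SE 0.11, edgeR adjusted p = 3.7e-04) and 0.65 (SE 0.13, adjusted p = 0.0110), the siCDO1C call being lost without siCtrl replicate 3 (adjusted p = 0.0939). FAM20B, the kinase that places that phosphate, fell by 0.45 on the log2 scale with siCDO1A (adjusted p = 8.6e-05) and had a log2 fold change of -0.17 with siCDO1C (adjusted p = 0.360), and the direct comparison of the siRNAs did not pass (0.29, adjusted p = 0.380). B3GALT6 and B3GAT3, which complete the linker, passed in neither comparison. The letters shown for CHPF were present in the 3′UTRs of PXYLP1 and SLC35D1, 2 of the 75 tested genes, beside 2.14% of all tested genes with an annotated 3′UTR.

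Of 7 tested genes that sulfate or epimerize the chondroitin chain, none was called with siCDO1A by edgeR, beside 14.8% of all tested genes, and 1 was called with siCDO1C (14.3%, beside 4.77%). The latter was DSEL, a dermatan sulfate epimerase (log2 fold change 0.34, adjusted p = 0.0250, against 0.10 and 0.442 with siCDO1A). In the supply of sugar nucleotides and sulfate donor, 3 of 18 genes were called with siCDO1A (16.7%, near the 14.8% of all tested genes) and 2 with siCDO1C (11.1%, beside 4.77%), all lower. PAPSS2, which makes the sulfate donor PAPS, went from 48.4 ± 1.3 CPM in siCtrl to 34.2 ± 3.28 and 36.3 ± 2.86 CPM (SD, n = 3) and fell by 0.50 and 0.42 on the log2 scale (adjusted p = 2.8e-04 and 0.0116). BPNT2, the Golgi phosphatase that clears the by-product of sulfation, was lower in all 6 siRNA libraries and fell by 0.39 and 0.33 (adjusted p = 3.8e-05 and 0.0215). GFPT1, the entry enzyme of hexosamine synthesis, fell by 0.33 with siCDO1A (adjusted p = 4.8e-04) and not with siCDO1C by this test (log2 fold change -0.22, adjusted p = 0.105). The siCDO1C calls of DSEL, PAPSS2 and BPNT2 were each lost without any of siCtrl replicates 1, 2 and 3, and also without siCDO1C replicate 3 for DSEL and siCDO1C replicate 1 for PAPSS2 and BPNT2 (adjusted p up to 0.139, 0.0755 and 0.152).

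Among core proteins that carry chondroitin sulfate, 2 of 8 tested genes were called with siCDO1A (25%, beside 14.8% of all tested genes), CSPG5 and SPOCK2, and 1 with siCDO1C (12.5%, beside 4.77%), CSPG5. CSPG5, a transmembrane proteoglycan known from brain, was at 6.06, 8.0 and 7.96 CPM in siCtrl, at 11.7, 14.3 and 11.8 CPM with siCDO1A and at 10.6, 11.6 and 10.7 CPM with siCDO1C. The siRNA libraries all lay above siCtrl, and CSPG5 rose by 0.78 (SE 0.14, adjusted p = 7.4e-04) and 0.57 (SE 0.15, adjusted p = 0.0384) on the log2 scale. The siCDO1C call was lost without any siCtrl library or siCDO1C replicate 1 or 3 (adjusted p up to 0.183), and that of SPOCK2 with siCDO1A (log2 fold change 0.50, adjusted p = 0.0448) without siCtrl replicate 1 or 3 or siCDO1A replicate 1 or 2 (adjusted p up to 0.239). The listed genes of glycosaminoglycan breakdown had 2 calls of 11 with siCDO1A (18.2%, near the 14.8% of all tested genes). These were ARSB and CEMIP2, both lower. With siCDO1C none was called by edgeR, beside 4.77%. ARSB, the sulfatase of the 4-sulfate, fell by 0.55 with siCDO1A (adjusted p = 0.0343), a call lost with the batch number as a block (adjusted p = 0.0619) and without siCtrl replicate 1 or siCDO1A replicate 1 or 2 (adjusted p up to 0.213). The siCDO1A calls of SPOCK2 and ARSB were also lost with DESeq2 in place of edgeR and in the fit of all 9 libraries.

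Heparan sulfate shares the linker with chondroitin sulfate. Of its 13 tested synthesis and editing genes, HS6ST1 was called higher with both siRNAs, HS6ST2 and HS3ST4 lower with siCDO1A, HS3ST3B1 higher and EXT1 lower with siCDO1C, so that 3 were called in each comparison (23.1%, beside 14.8% and 4.77% of all tested genes). HS6ST1, a sulfotransferase of position 6 of glucosamine, went from 45.4 ± 0.972 CPM to 65.7 ± 2.39 and 58.1 ± 5.15 CPM and rose by 0.53 and 0.35 on the log2 scale (adjusted p = 2.7e-05 and 0.0322). HS3ST4, which adds the rarer 3-O-sulfate, fell by 0.60 with siCDO1A (adjusted p = 0.0275, and 0.0574 with the batch number as a block). EXT1, a heparan sulfate polymerase, fell by 0.37 with siCDO1C (adjusted p = 0.0392, and 0.0557 with the block). The siCDO1C calls of HS6ST1, HS3ST3B1 and EXT1 were each lost without any siCtrl library or siCDO1C replicate 1 or 3 (adjusted p up to 0.146, 0.130 and 0.205), and that of HS3ST4 with siCDO1A without siCtrl replicate 2 or 3 or siCDO1A replicate 1 or 2 (adjusted p up to 0.154). Of 14 heparan sulfate core proteins, 6 were called with siCDO1A (42.9%, beside 14.8% of all tested genes), 1 higher (AGRN) and 5 lower. With siCDO1C 1 was called, lower (7.14%, beside 4.77%). Of the siCDO1A calls, that of AGRN held in 6 of 14 alternatives and that of HSPG2 in 11 (edgeR adjusted p up to 0.195 and 0.549). That of NRP1 was lost without siCDO1A replicate 1 (edgeR adjusted p = 0.0516). SDC4, the syndecan called with both, fell by 0.45 and 0.32 (adjusted p = 1.4e-04 and 0.0315, the latter 0.0557 with the block), and TGFBR3, or betaglycan, fell by 0.54 with siCDO1A (adjusted p = 0.0409, and 0.0773 with the block). The SDC4 call with siCDO1C was lost without any siCtrl library or siCDO1C replicate 1 or 3 (adjusted p up to 0.196), and that of TGFBR3 without siCtrl replicate 1 or 3 or siCDO1A replicate 1 or 2 (adjusted p up to 0.152). HS3ST4 and TGFBR3 also lost their siCDO1A calls with DESeq2 in place of edgeR and in the fit of all 9 libraries. TGFBR3 lost its call without a filter on low counts as well. Between siCDO1C and siCDO1A, SDC2 alone of the 75 genes was called, higher with siCDO1C, beside 0.244% of all tested genes called higher and 0.199% called lower. HS3ST3B1 was called as well with the block, and without siCDO1A replicate 1 or 2 none of the 75 was called by edgeR, whereas 7 were without siCDO1C replicate 2.

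**Figure D5:**
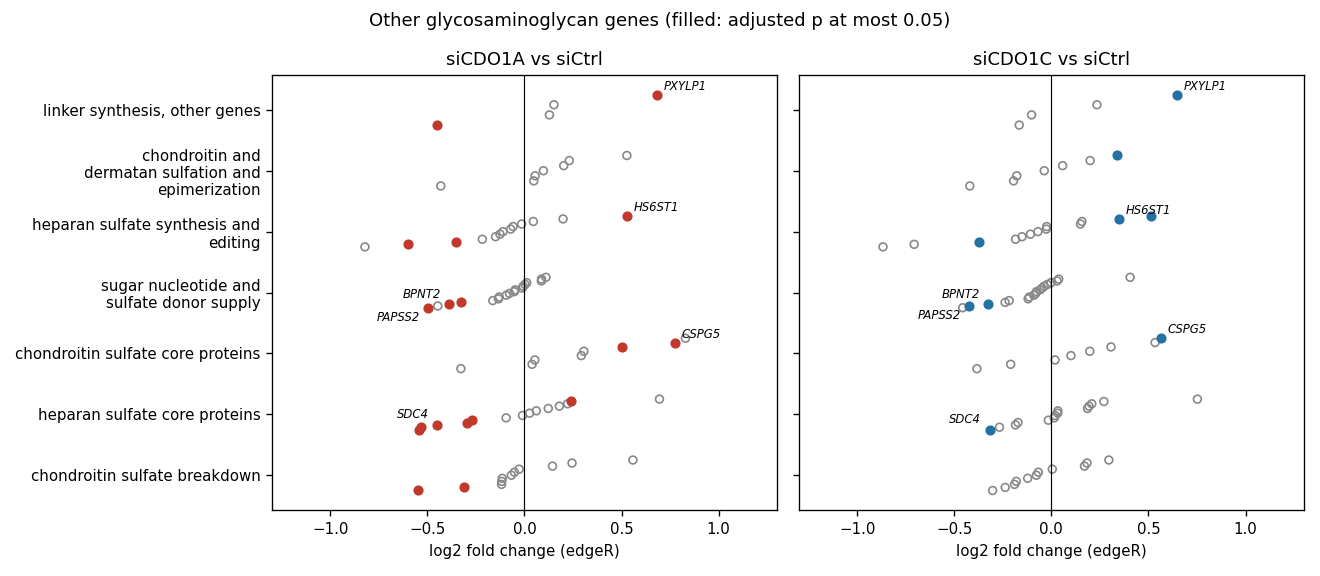
Fitted log2 fold change against siCtrl (horizontal axes) of the 75 tested genes in 7 lists, for siCDO1A (left) and siCDO1C (right); each point is a gene, spread vertically within its list only for legibility, and filled points passed an adjusted p of 0.05. The 6 genes named in the plot, PXYLP1, HS6ST1, CSPG5, PAPSS2, BPNT2 and SDC4, passed in both comparisons and lie on the same side of 0 in both.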

How the data were processed

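RNA of VCaP cells transfected with siCtrl, siCDO1A or siCDO1C was measured by RNA-seq (3 libraries per group, 9 in all). The authors deposited read counts per gene, whole and not normalized. Per the paper they come from featureCounts, and the submitters' processing notes name CASAVA, HISAT2 2.0.5 and hg38. How the counting treated strand and reads mapping to several places is not given in the sources used here. The table holds 3 further columns of values per library that match no sample, which were not used.

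Genes were kept by filterByExpr of edgeR 4.0.16 (minimum count 10, over the 9 libraries), leaving 15555. Each of 3 comparisons was fitted on its 6 libraries with TMM and the robust quasi-likelihood test in R 4.3.3, with Benjamini-Hochberg adjustment over all tested genes and a threshold of 0.05. RPKM used the deposited gene length, and log2 CPM for pattern likeness a pseudocount of 0.5. DESeq2 1.42.0, RLE size factors, other filters, 1 fit of all 9 libraries, the replicate block, a correction for GC content and length chosen after seeing the data, and leaving out each library were alternatives. The scripts were tested on simulated data.

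Same-numbered libraries were treated as pairs in the block and in the ratios within batches, because the labels give the same numbers as batches. Yet deviations of same-numbered libraries from their group means correlated between -0.376 and 0.378 over 11332 genes, without a common sign. The members, the lists and the letters searched in 3′UTRs were chosen with earlier results of these data known. Named were the 10 members, CDO1, listed genes called in both comparisons with siCtrl or between the siRNAs, the called gene of largest change per list, the 5 genes most like CHPF and the genes within 20 kb of it. A gene that this rule also names is not reported here. AGRN, B3GALT6, B3GAT3, CEMIP2, EXT1, FAM20B, GFPT1, HS3ST3B1, HS6ST2, HSPG2, NRP1, SLC35D1 and SPOCK2 were named after their values were seen. BPNT2 is listed under its older symbol IMPAD1 and was matched by its identifier. Total counts of 12061295 to 16073698 per library put 3 counts at 0.187 to 0.246 CPM, a limit that covers counting error only.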

Additional observations from a re-analysis of the deposited data

Results flagged for a closer look

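SDC2, a syndecan that carries heparan sulfate, differed between the 2 siRNAs directed against CDO1. It was at 67.3, 68.1 and 70.9 CPM in siCtrl, at 47.7, 45.0 and 50.2 CPM with siCDO1A and at 70.4, 68.5 and 73.4 CPM with siCDO1C. The siCDO1A libraries lay below all others, whereas the siCDO1C libraries overlapped siCtrl. The direct comparison of siCDO1C with siCDO1A gave a log2 fold change of 0.57 (SE 0.09, edgeR quasi-likelihood test, adjusted p = 0.00420), and the ratio was 1.46 to 1.52 within the 3 batches. The call was lost without siCDO1A replicate 1 or 2 (adjusted p up to 0.0827).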

How the results depend on the processing

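CHPF kept its sign in every alternative run against siCtrl, with log2 fold changes of 1.41 to 1.52 (siCDO1A) and 1.33 to 1.43 (siCDO1C) when a library was left out. Its GC content (66.2%) was above that of 98.1% of tested genes, and with trends in GC content and length removed its log2 fold change with siCDO1A was 1.28, both without and with the block. Leaving out a library moved the reduction of CDO1 to between 80.5% and 84.8% (siCDO1A) and between 85.8% and 91.9% (siCDO1C).

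The counts of calls rested on few libraries, and the cause was not tested. With the replicate number, the batch of the labels, as a block, 1 gene other than CHPF was called with siCDO1A in place of 2, and 2 of the 75 pathway genes in place of 1 between the siRNAs. The block also ended the calls of CSGALNACT1, HS3ST4, AGRN, TGFBR3, ARSB and OBSL1 with siCDO1A and of EXT1 and SDC4 with siCDO1C, and no other call of the genes of chondroitin synthesis, the pathway lists or OBSL1. DESeq2 and the fit of all 9 libraries each ended the siCDO1A calls of HS3ST4, SPOCK2, TGFBR3 and ARSB. The fit of all 9 libraries also ended those of HSPG2, AGRN and OBSL1. With GC and length trends removed, without and with the block, 4 genes other than CHPF were called with siCDO1A (XYLT1, CSGALNACT1, CSGALNACT2 and CHPF2) and 2 with siCDO1C (XYLT1 and CSGALNACT1). Leaving out a library gave 1 (without siCtrl replicate 2 or 3 or siCDO1A replicate 2) to 3 calls (without siCDO1A replicate 3) with siCDO1A, and 0 (without any siCtrl replicate or siCDO1C replicate 3) to 2 calls (without siCDO1C replicate 2) with siCDO1C. The fit of all 9 libraries gave 2 with siCDO1C. For the pathway genes, leaving out a library gave 12 to 28 calls with siCDO1A (28 without siCDO1A replicate 3), 0 to 15 with siCDO1C (0 without siCtrl replicate 3, 15 without siCDO1C replicate 2) and 0 to 7 between the siRNAs (7 without siCDO1C replicate 2). Between the siRNAs 3 were called without a filter on low counts and 3 in the fit of all 9 libraries, whereas the removal of GC and length trends gave 2, or 5 with the block. Over all genes, leaving out a library gave 1292 to 3454 calls with siCDO1A in place of 2309, 263 to 2068 with siCDO1C in place of 742 and 18 to 447 between the siRNAs in place of 69.

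Signs turned for uncalled log2 fold changes, which were near 0 except those of CHST11 (0.28 with siCDO1C and -0.31 between the siRNAs). With a library left out they ranged, for siCDO1A, from -0.17 to 0.0035 for CHPF2 and from -0.067 to 0.096 for B4GALT7 (-0.10 with GC and length trends removed, and -0.095 with the block as well). For siCDO1C they ranged from -0.13 to 0.034 for CHPF2, -0.056 to 0.14 for XYLT2, -0.13 to 0.035 for B4GALT7 and -0.078 to 0.68 for CHST11. Between the siRNAs they ranged from -0.015 to 0.11 for CHPF2, -0.014 to 0.15 for CHSY1, -0.066 to 0.047 for CSGALNACT1, -0.18 to 0.020 for XYLT2 and -0.68 to 0.078 for CHST11. CSGALNACT1 there had 0.0011 with DESeq2, 0.0012 with RLE size factors and 0.0042 with no filter on low counts. CHSY3 and CHST11 had at most 20 counts in any library, which limits what could be detected.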
